A study of Mus musculus with 9 samples.

Results

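The cytosolic ribosomal protein genes encode the proteins of the ribosome that translates mRNA in the cytoplasm. They were taken here as all protein-coding genes whose mouse symbol is Rpl or Rps followed by a number, with an optional letter or digit, or is Rpsa, Rplp0, Rplp1 or Rplp2. The rule found 83 genes among 46517 gene identifiers. Of these, 43 encode core proteins of the large (60S) subunit, 31 encode core proteins of the small (40S) subunit, 3 encode the stalk proteins and 6 are paralogues. They lie on 19 chromosomes, with 14 on chromosome 7.

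Each ribosomal subunit is built in the nucleolus from ribosomal RNA and a fixed set of proteins, each needed in about the same number of copies. Most of the genes are transcribed at a high level in every cell, and growing and dividing cells need more ribosomes than resting cells do. Many of their mRNAs begin with a C followed by a run of pyrimidines, the terminal oligopyrimidine (TOP) motif, through which mTOR signalling controls their translation.

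RNA of primary glioblastoma tissue was sequenced in bulk from 3 mouse tumour models of mixed strain background, with 3 libraries per model. Synapsin-cre is named for a neuronal promoter, NG2-creERTM for the promoter of Cspg4, active in oligodendrocyte precursors and pericytes, and Nestin-creERT2 for one active in neural stem and progenitor cells. In the ERTM and ERT2 forms Cre is switched on by tamoxifen. No label names the tumour-driving alleles, the age or the sex of the animals, or says that replicates came from separate animals. The p-values therefore speak only of the spread among these samples, which may be in part technical. Replicate numbers are names in accession order, and values run from replicate 1 to replicate 3 throughout.

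Libraries held 23557398 to 41099967 counts in genes. The glioma and glial genes Olig2, Sox2, Gfap, Pdgfra and Nes were detected in all 9 libraries. Their lowest value was 39.0 for Olig2 in CPM, counts scaled to a common library total. Egfr, of the same list, had 26.0, 2.01 and 4.57 CPM in Synapsin-cre and 15.9, 15.7 and 4.69 CPM in NG2-creERTM. In Nestin-creERT2 it had 316, 193 and 1643 CPM. Synapsin-cre replicate 1 stood apart from the other libraries. The summed level of 14 neuronal marker genes was 9077 CPM there, against 62.3 to 1266 CPM in the other 8. Of the 14, 13 were highest there, and none was at 0 in any library. All 16 genes of a proliferation list were lowest there, with a summed level of 259 CPM, against 1705 to 3910 CPM in the other 8. Many results that rest on this library are given with and without it. The ranges, SDs and chromosome correlations of single members include it. In bulk samples, fewer cells of a type and less RNA per cell cannot be told apart.

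The family's mean share of the counts differed between the 3 models by less than the SD within any of them. The share was 0.915, 2.07 and 4.18% in the Synapsin-cre libraries. It was 2.45, 3.53 and 2.76% in NG2-creERTM libraries and 2.77, 3.67 and 2.08% in Nestin-creERT2 libraries. The means were 2.39 ± 1.66% in Synapsin-cre, 2.91 ± 0.559% in NG2-creERTM and 2.84 ± 0.799% in Nestin-creERT2 (SD, n = 3 each). The lowest and the highest of the 9 libraries were both Synapsin-cre, a 4.57-fold range that was 2.02-fold without Synapsin-cre replicate 1. Within NG2-creERTM the range was 1.44-fold and within Nestin-creERT2 it was 1.76-fold.

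The genes moved between libraries largely as a block. Of the 80 members tested, 50 were highest in Synapsin-cre replicate 3, 13 in Nestin-creERT2 replicate 2 and 12 in NG2-creERTM replicate 2. Synapsin-cre replicate 1 was the lowest library for 76 of them, and without it Nestin-creERT2 replicate 3 was the lowest for 40. Across the 9 libraries the correlation of a member's log2 CPM with the mean of the other tested members had a median of 0.94. It was above 0.8 for 72 of 80 members. Without Synapsin-cre replicate 1 the median was 0.85 and 49 members were above 0.8. All members are measured in the same libraries, so these values are descriptions.

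**Figure D1:**
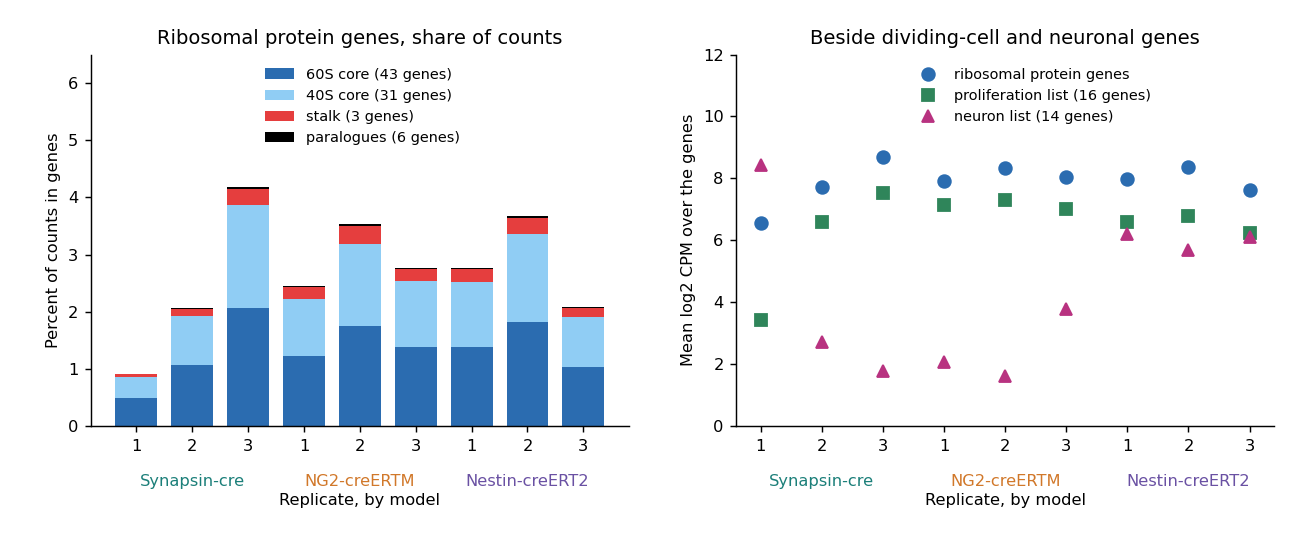
Left, the percent of counts in genes taken by ribosomal protein genes in each library, stacked by large subunit (60S), small subunit (40S), stalk and paralogue genes; right, the mean log2 CPM of the ribosomal protein genes, the proliferation list and the neuron list in the same libraries. The stacked share runs between 0.915% in Synapsin-cre replicate 1 and 4.18% in Synapsin-cre replicate 3, and the proliferation list is also lowest in the first of these and highest in the second, while the neuron list peaks in Synapsin-cre replicate 1.

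The level of the family and that of the proliferation list were lowest and highest in the same libraries. Mean log2 CPM of the tested members was 6.55, 7.73 and 8.69 in Synapsin-cre, 7.92, 8.32 and 8.05 in NG2-creERTM, and 7.97, 8.37 and 7.61 in Nestin-creERT2. Mean log2 CPM of the proliferation list was 3.44, 6.60 and 7.54 in Synapsin-cre, 7.13, 7.31 and 7.01 in NG2-creERTM, and 6.58, 6.79 and 6.24 in Nestin-creERT2. Within each model the libraries fell in the same order by both lists, except that NG2-creERTM replicates 1 and 3 changed places. Reads mapping to several places, which can include reads of ribosomal protein genes and their copies, made up 4.97% of the reads in Synapsin-cre replicate 1 and 7.14 to 9.50% in the others. The summed level of 12 microglia and macrophage genes was 1253, 259 and 151 CPM in Synapsin-cre tumours, 642, 881 and 719 CPM in NG2-creERTM, and 949, 941 and 914 CPM in Nestin-creERT2, so within Synapsin-cre its order was the reverse of that of the family. The part of cell content and of mapping in the family's level was not tested.

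The subunits kept close to a constant proportion. Small-subunit core genes took 43.2, 44.8 and 46.6% of the counts of both subunits' core genes in Synapsin-cre, 44.9, 44.9 and 45.5% in NG2-creERTM, and 45.0, 46.1 and 46.3% in Nestin-creERT2. All 9 values thus lay between 43.2 and 46.6%, while the family's own share varied 4.57-fold. The stalk genes, whose products recruit the elongation factors, took 0.0577, 0.130 and 0.282% of all counts in Synapsin-cre, 0.196, 0.324 and 0.205% in NG2-creERTM, and 0.234, 0.274 and 0.160% in Nestin-creERT2.

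Some features near the transcription start, which the rule did not use, were more frequent among these genes than among all genes. RefSeq promoters on GRCm38.p6, which hold 250 bases before and 50 bases after the start, matched 63 of the 83 members. A C with at least 4 further pyrimidines exactly at the annotated start stood in 13 of the 63 genes (20.6%), against 3.01% of the 27025 genes with a promoter. A C-led pyrimidine tract of at least 8 bases in the window from 20 bases before the start to 10 from it stood in 27 of 63 members (42.9%), against 11.3% of all genes. The windows of 9 members that hold a tract show how it sits around the start, which is base 21 of each, with the longest tract in capitals. Other members, such as Rplp0, Rps12 and Rps28, have no C-led tract of 5 or more bases in that window. Where RefSeq gives a gene several starts, the window is that of the start with the longest tract, and a gene is counted if any of its promoters matches.
Rplp2, chr7:141447631-141447660, plus strand: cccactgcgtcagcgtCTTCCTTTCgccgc
Rpl38, chr11:114668560-114668589, plus strand: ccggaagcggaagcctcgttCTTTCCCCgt
Rpl7a, chr2:26910787-26910816, plus strand: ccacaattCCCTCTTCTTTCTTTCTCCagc
Rpl35, chr2:39005122-39005151, minus strand: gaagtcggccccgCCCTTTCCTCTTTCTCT
Rpl34, chr3:130730328-130730357, minus strand: ccgCCCCTTCCTTTTCCTCTTCCggggacg
Rps27, chr3:90213639-90213668, minus strand: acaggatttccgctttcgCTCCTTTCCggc
Rpl35a, chr16:33056462-33056491, plus strand: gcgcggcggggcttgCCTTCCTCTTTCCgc
Rpl22, chr4:152324416-152324445, plus strand: atcagcgctgCTTCTggaatgttccagctc
Rpl22l1, chr3:28805488-28805517, plus strand: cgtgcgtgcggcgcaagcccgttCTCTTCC

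In Rpl38 the tract begins at the start itself, and in Rplp2, Rpl7a, Rpl35, Rpl34, Rps27 and Rpl35a it runs across it. In Rpl22l1 the tract begins inside the transcript, and in Rpl22 it is short and ends before the start. Among motifs searched on both strands of the whole 300 bases, CCGGAAG, the letters of an ETS-family site, stood in 26 of 63 members (41.3%), against 9.93% of all genes. AANATGGC, the letters read by YY1, stood in 13 (20.6%), against 6.96%, and GGGCGG, the GC box, in 39 (61.9%), against 38.2%. TATAAA stood in 7 (11.1%), against 15.7%, and the E-box CACGTG, which MYC can bind, in 6 (9.52%), against 8.09%. These are matches of letters and not sites of binding.

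Per length of mRNA, the highest levels over the 9 libraries were those of Rplp1, an acidic stalk protein, at 1140 CPM per kb and Rpl8, a protein close to the ribosome's catalytic centre, at 1078 CPM per kb. The next were Rps15 (953), Rpl32 (918) and Rps12 (843 CPM per kb). The median member stood at 370.2 CPM per kb. At the low end were Rpl7l1 (50.8), Rps15a (55.6), Rpl22l1 (60.9) and Rps20 (69.1 CPM per kb). Rps15a and Rps20 were divided by long annotated mRNAs of 5130 and 3706 bases, which lowers their values. Rpl24 had 5 to 21 counts in any library, but lies under another annotated transcript on its own strand, so this count is not taken as its level.

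Members differed in how far they moved between libraries. The largest spread over the 9 libraries was that of Rpl34, a large-subunit protein, with 32.2, 149 and 372 CPM in Synapsin-cre tumours, 176, 193 and 176 CPM in NG2-creERTM, and 144, 264 and 87.3 CPM in Nestin-creERT2. This is an 11.5-fold range, and its SD on the log2 scale was 1.01. The range rests in part on Synapsin-cre replicate 1. The next lowest value of Rpl34 was 87.3 CPM, in Nestin-creERT2 replicate 3. The base of the stalk, Rplp0, had 196, 795 and 1722 CPM in Synapsin-cre tumours, 1186, 1887 and 1089 CPM in NG2-creERTM, and 1332, 1388 and 645 CPM in Nestin-creERT2. Rps2 (10.1-fold), Rpl26 (6.19-fold) and Rpl32 (9.47-fold) completed the 5 with the largest SD. The smallest range was 2.75-fold for Rpl3, at 297, 325 and 556 CPM in Synapsin-cre tumours, 348, 692 and 439.5 CPM in NG2-creERTM, and 525, 454 and 252 CPM in Nestin-creERT2. Among the 79 members averaging 3 or more in log2 CPM it also had the smallest SD, followed by Rpl17, Rpl15, Rps29 and Rps21, whose ranges were 2.99-fold to 3.30-fold.

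What remained after the common level was removed ran with the chromosome on which a gene lies. For each of 79 members averaging 3 or more in log2 CPM, the family mean of the library and the gene's own mean over the libraries were subtracted, and the members of each chromosome with 3 or more were averaged. These values were set beside the median of the other protein-coding genes of the same chromosome, centred in the same way on their own means and on the median of all such genes. Over 12 chromosomes and 9 libraries, 108 points in all, Pearson's r was 0.87 and Spearman's rho 0.85, and 90 of 108 points had the same sign in both. Without Synapsin-cre replicate 1, r was 0.90 over 96 points. Within 1 model r was 0.85 in Synapsin-cre, 0.89 in NG2-creERTM and 0.90 in Nestin-creERT2, over 36 points each. Within 1 library r was 0.56 in Synapsin-cre replicate 1 and 0.86 to 0.96 in the other 8, over 12 points each. The points share libraries and centring, and no test was made of them.

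Chromosome 15 carries Rpl3, Rpl8, Rpl30 and Rpl37. Their mean level relative to the family, on the log2 scale, was 0.18, −0.01 and −0.06 in Synapsin-cre, 0.30, 0.17 and 0.13 in NG2-creERTM, and 0.07, −0.67 and −0.12 in Nestin-creERT2. The median of the other 446 genes of chromosome 15 was −0.15, −0.16 and −0.0037 in Synapsin-cre, 0.52, 0.33 and 0.24 in NG2-creERTM, and −0.03, −0.54 and −0.15 in Nestin-creERT2. Both sets were above 0 in all 3 NG2-creERTM libraries and lowest in Nestin-creERT2 replicate 2, and they had opposite signs in Synapsin-cre replicate 1 and Nestin-creERT2 replicate 1.

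Chromosome 2 carries Rpl7a, Rpl12, Rpl35 and Rps21 and went the other way. Relative to the family, the 4 genes averaged 0.20, 0.05 and 0.08 in Synapsin-cre, −0.49, −0.34 and −0.13 in NG2-creERTM, and 0.20, 0.24 and 0.18 in Nestin-creERT2. The other genes of chromosome 2 had medians of 0.17, −0.01 and 0.03 in Synapsin-cre, −0.49, −0.33 and −0.09 in NG2-creERTM, and 0.25, 0.32 and 0.21 in Nestin-creERT2. Members and other genes were both lowest in NG2-creERTM replicate 1 and highest in Nestin-creERT2 replicate 2.

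Other chromosomes stood apart in single libraries. The 7 members measured on chromosome 17, among them Rps2, Rps28 and Rps18, averaged 0.45 above the family in Synapsin-cre replicate 3, where the other 517 genes had a median of 0.45. On chromosome 9, with Rplp1, Rpsa and Rpl4, the 7 members averaged −0.41 in Synapsin-cre replicate 2 and the other 605 genes had a median of −0.41. On chromosome 11, with Rpl26 and Rpl27, the 7 members averaged 0.47 and the other 894 genes 0.39 in the same library. The 4 members of chromosome 3 averaged 0.71 in Nestin-creERT2 replicate 2, above a median of 0.42 for the chromosome's other genes.

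**Figure D2:**
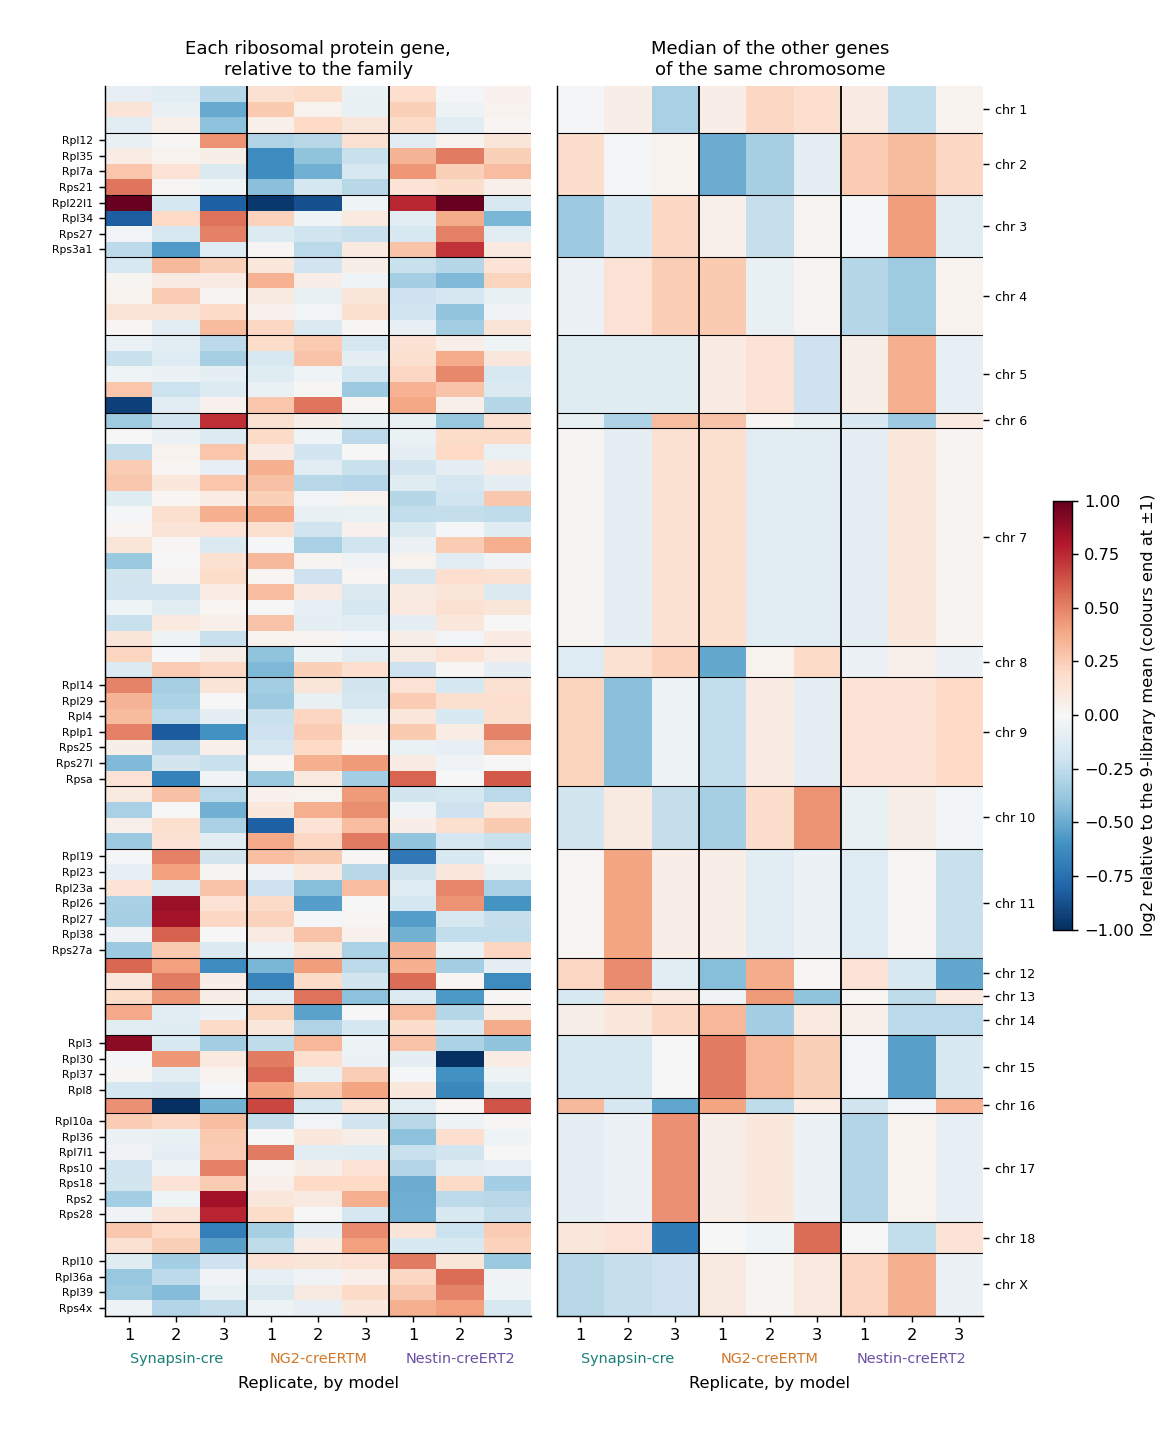
Each row on the left is 1 ribosomal protein gene, ordered by chromosome and named on the chromosomes described here, and each column a library; colour gives log2 CPM relative to the family and to the gene's 9-library mean. On the right, the median of the other protein-coding genes of the same chromosome is drawn in the same colours. Blocks such as chromosome 2 in the NG2-creERTM libraries (members −0.49 and other genes −0.49 in replicate 1) and chromosome 17 in Synapsin-cre replicate 3 (0.45 in both) appear on both sides.

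**Figure D3:**
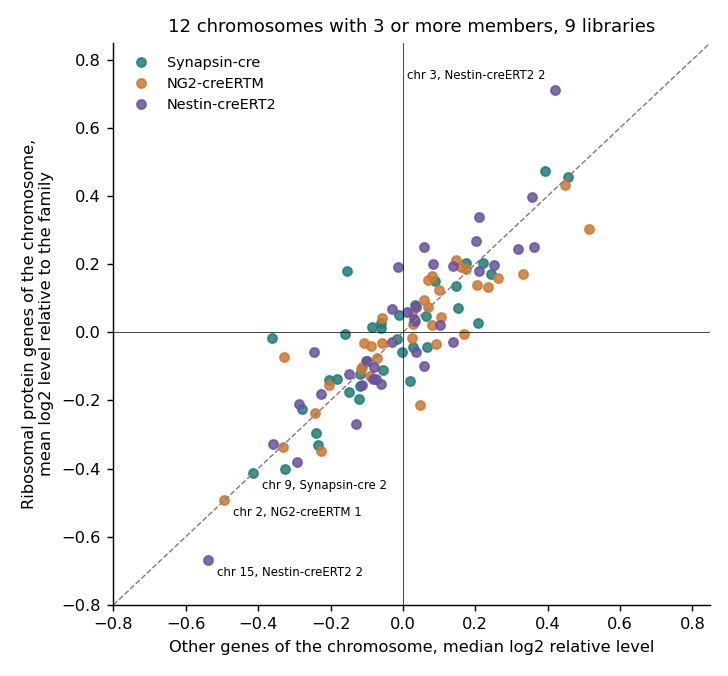
Mean log2 level relative to the family of the ribosomal protein genes of a chromosome (vertical axis) against the median log2 relative level of its other protein-coding genes (horizontal axis), 1 point for each of 12 chromosomes in each of 9 libraries, coloured by model. The dashed line marks equal values; the points lie along it, with r 0.87 over the 108 points.

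Single members followed their chromosome to different degrees. The correlation of a member with the other genes of its chromosome over the 9 libraries had a median of 0.73 among the 79, was positive in 76 and above 0.5 in 62. It was highest for Rpl35 (0.98), Rpl8 (0.96) and Rpl7a (0.95). It was lowest for Rps9 (−0.31), whose SD relative to the family was 0.10, the smallest of all, and was near 0 for Rps27l (−0.03) and Rps27a (−0.02). Over the 9 libraries it was also low for Rpl3 (0.07) on chromosome 15 and Rpl22l1 (0.10) on chromosome 3. Both values include Synapsin-cre replicate 1, where these genes went against their chromosomes. There Rpl3 stood at 0.90, beside −0.15 for the other genes of chromosome 15. Rpl22l1 stood at 1.05, beside −0.36 for those of chromosome 3. In other libraries both genes went either way. Rpl3 stood at −0.25, beside 0.52, in NG2-creERTM replicate 1, and Rpl22l1 at −0.82, beside 0.21, in Synapsin-cre replicate 3. In Nestin-creERT2 replicate 2 Rpl3 stood at −0.32, beside −0.54, and Rpl22l1 at 1.24, beside 0.42. The correlations of single members were not taken without Synapsin-cre replicate 1. After the chromosome's median was subtracted, the SD over libraries was smaller for 68 of 79 members, and its median was 0.18, against 0.25 before. For Rpl34 it was 0.28 after and 0.42 before, and for Rpl22l1 it was 0.85 after and 0.84 before. What moved the genes of a chromosome together in these libraries was not tested.

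The 4 X-linked members are Rpl10 and Rpl36a, Rpl39, a small protein of the peptide exit tunnel, and Rps4x. Rps4x had 205, 394 and 801 CPM in Synapsin-cre tumours, 535, 694 and 654 CPM in NG2-creERTM, and 735, 1002 and 396 CPM in Nestin-creERT2. Relative to the family the 4 averaged −0.22, −0.33 and −0.14 in Synapsin-cre, −0.03, 0.02 and 0.12 in NG2-creERTM, and 0.34, 0.40 and −0.15 in Nestin-creERT2. Xist, the RNA that silences 1 X chromosome in females, was at 1.28, 1.02 and 1.05 CPM in Synapsin-cre tumours, 0.989, 1320.4 and 1.27 CPM in NG2-creERTM, and 778, 932 and 1810 CPM in Nestin-creERT2. The sex these values point to and the model cannot be told apart between Synapsin-cre and Nestin-creERT2.

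Between NG2-creERTM and Nestin-creERT2 tumours no ribosomal protein gene differed past the threshold. The test was the quasi-likelihood test of edgeR with Benjamini-Hochberg adjustment over 17947 genes, and differences are log2 fold changes with their standard errors. It called 0 members, against 0% of all genes, and the lowest adjusted p of a member was 0.411. At an unadjusted p under 0.05 no member was higher, against 5.53% of all genes, and 1 was lower, against 5.73%. DESeq2 called 0 members and 623 genes, which is 3.47% of those tested. Of 80 members tested, 50 had a positive log2 fold change, against 50.9% of all genes, and the median was 0.12, against 0.02 over all genes. That median turned on single libraries. It was −0.06 without Nestin-creERT2 replicate 3 and −0.02 without NG2-creERTM replicate 2, but 0.33 without Nestin-creERT2 replicate 2, with 70 of 81 positive, and 0.19 without NG2-creERTM replicate 3. Positive values were held by 27 of 43 large-subunit, 19 of 31 small-subunit and 2 of 3 stalk genes.

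In 6 of the 80 members every NG2-creERTM library was above every Nestin-creERT2 library, against 11% of all genes, among them Rpl8, Rpl22, Rpl30, Rpl37 and Rps26. Rpl8, at chr15:76904078-76906314, had 1104, 1331 and 1208 CPM in NG2-creERTM, against 936, 729 and 616 CPM in Nestin-creERT2, a log2 fold change of 0.67 ± 0.54 (SE, adjusted p = 0.681). Rpl30 had 210.5, 219.7 and 156 CPM in NG2-creERTM, against 144, 93.4 and 125 CPM in Nestin-creERT2 (0.70 ± 0.49, adjusted p = 0.633), and Rpl37 had 307, 261 and 269.6 CPM, against 213, 187 and 160.4 CPM in Nestin-creERT2. These 3 lie on chromosome 15, whose other genes are described above. Rps26, a protein at the mRNA exit channel, had 379, 446 and 458 CPM in NG2-creERTM, against 229.8, 352 and 199.8 CPM in Nestin-creERT2 (0.71 ± 0.53, adjusted p = 0.656).

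Rpl7a, at chr2:26910764-26913318, was the only member below in every library, against 14.2% of all genes. It had 292, 426 and 439 CPM in NG2-creERTM, against 628, 722 and 444 CPM in Nestin-creERT2, a log2 fold change of −0.63 ± 0.45 (adjusted p = 0.639). Rpl35, also on chromosome 2, had 73.8, 114 and 107 CPM in NG2-creERTM, against 149.7, 223 and 108 CPM in Nestin-creERT2 (−0.70 ± 0.51, adjusted p = 0.644), and the groups overlapped. It was −0.39 without Nestin-creERT2 replicate 2. Rpsa, the small-subunit protein also known as the laminin receptor, had 495, 906 and 552 CPM in NG2-creERTM, against 997, 872 and 785 CPM in Nestin-creERT2 (−0.44 ± 0.54, adjusted p = 0.804), and −0.76 without NG2-creERTM replicate 2.

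Synapsin-cre against Nestin-creERT2 gave a median member log2 fold change of −0.09, against 0.13 over all genes, and 33 of 80 members were positive, against 57.8% of all genes. The sign of that median depended on single libraries. It was 0.27 without Synapsin-cre replicate 1, with 58 of 80 positive, −0.83 without Synapsin-cre replicate 3, with 2 of 81 positive, and 0.07 without Nestin-creERT2 replicate 2. No member passed, the background was 0%, and the lowest adjusted p of the quasi-likelihood test was 0.462. At an unadjusted p under 0.05 no member was higher, against 6.74% of all genes, and 1 was lower, against 4.05%. Without Synapsin-cre replicate 3, 15 of 81 were lower at that p, against 4.86% of all genes, and without Synapsin-cre replicate 1, 5 of 80 were higher, against 9.33%. DESeq2 called 0 members and 497 genes, which is 2.77%.

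Rplp1, at chr9:61913284-61914542, was the only member whose groups did not overlap between these models. It was lower, as were 6.26% of all genes in that sense, and 0 members were higher without overlap, against 8.46% of all genes. It had 291, 262 and 599 CPM in Synapsin-cre, against 669, 771 and 605 CPM in Nestin-creERT2, a log2 fold change of −0.83 ± 0.42 (adjusted p = 0.513). Rpl35a, on chromosome 16, had 54.2, 40.8 and 127 CPM in Synapsin-cre, against 99.7, 143 and 128 CPM in Nestin-creERT2 (−0.74 ± 0.42, adjusted p = 0.558). Rps3a1, on chromosome 3, had 122, 227 and 601 CPM in Synapsin-cre, against 487, 868 and 329 CPM in Nestin-creERT2 (−0.83 ± 0.58, adjusted p = 0.646). Without Synapsin-cre replicate 1 these values were −0.68 for Rplp1, −0.57 for Rpl35a and −0.46 for Rps3a1, and without Synapsin-cre replicate 3 they were −1.36, −1.44 and −1.73. The most positive were Rps2, with 178, 498 and 1798 CPM in Synapsin-cre, against 436, 672 and 389.5 CPM in Nestin-creERT2 (0.72 ± 0.70, adjusted p = 0.749), and Rps28, with 33.4, 85.3 and 259 CPM, against 66.6, 109.7 and 60.8 CPM in Nestin-creERT2 (0.67 ± 0.62). Both lie on chromosome 17 and rest on Synapsin-cre replicate 3, without which they stood at −0.60 for Rps2 and −0.45 for Rps28. Without Synapsin-cre replicate 1 they stood at 1.19 and 1.11.

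Synapsin-cre against NG2-creERTM gave a median of −0.19, against 0.08 over all genes, and 19 of 80 members were positive, against 54.6% of all genes. This too turned with the libraries, to 0.20 without Synapsin-cre replicate 1 (57 of 80 positive) and −0.86 without Synapsin-cre replicate 3 (1 of 81 positive). No member passed, the background was 0%, and no member was under an unadjusted p of 0.05 in either direction (background 8.81% higher and 4% lower). Without Synapsin-cre replicate 3, 21 of 81 were lower at that p, against 6.13% of all genes. DESeq2 called 0 members and 446 genes, which is 2.49%. No member's groups were apart in either direction, against 8.04% of genes higher and 5.76% lower. The smallest p was that of Rpl35a, with 54.2, 40.8 and 127 CPM in Synapsin-cre, against 165, 121 and 124 CPM in NG2-creERTM (−0.89 ± 0.42, adjusted p = 0.412). Rps12 had 117, 336 and 470.2 CPM in Synapsin-cre, against 414, 655 and 582 CPM in NG2-creERTM (−0.84 ± 0.48, adjusted p = 0.480). Without Synapsin-cre replicate 1 the values were −0.72 for Rpl35a and −0.45 for Rps12, and without Synapsin-cre replicate 3 they were −1.58 and −1.31.

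**Figure D4:**
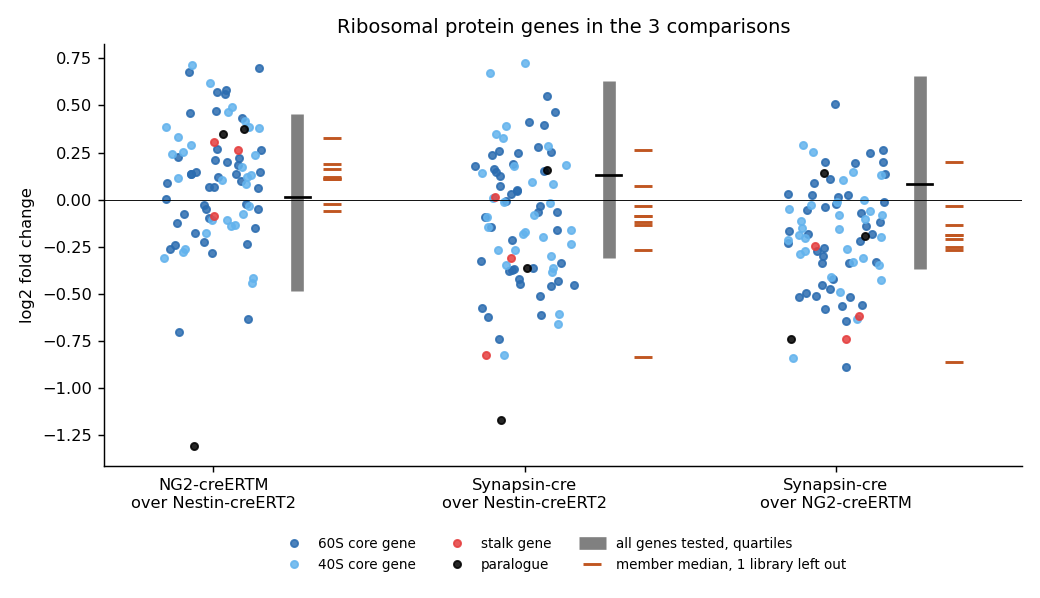
Log2 fold change of each tested ribosomal protein gene (points, coloured by role) in the 3 comparisons, beside the quartiles and, as a black line, the median of all genes tested (grey bar). The short lines give the members' median when 1 of the 9 libraries is left out, which for Synapsin-cre over Nestin-creERT2 spans −0.83 to 0.27.

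The comparisons share libraries. Under RLE and upper quartile size factors and under TMM from all other genes, the members' median was 0.10 to 0.13 for NG2-creERTM over Nestin-creERT2, −0.16 to −0.09 for Synapsin-cre over Nestin-creERT2 and −0.23 to −0.19 for Synapsin-cre over NG2-creERTM. With library totals it was 0.06, −0.20 and −0.23 in that order of comparisons. By limma voom it was 0.14, −0.31 with 11 of 80 positive, and −0.45 with 5 of 80 positive. Size factors taken from the members alone hold the family near 0 by construction, and they set the median of all genes at −0.10, 0.67 and 0.73. The pooled SD of the members' mean log2 CPM between libraries of 1 model was 0.30, 0.81 and 0.77, larger than the members' median in each of these fits.

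Rpl22l1 was the member that kept least to the family. Rpl22 binds RNA in the large subunit, and in mice its loss raises the mRNA of its paralogue Rpl22l1. Rpl22l1, at chr3:28805436-28807424, had 22.8, 22.1 and 27.8 CPM in Synapsin-cre tumours, 14.7, 20.7 and 30.6 CPM in NG2-creERTM, and 50.4, 92.9 and 20.5 CPM in Nestin-creERT2. It was high in 2 of 3 Nestin-creERT2 libraries, and the third lay inside the range of NG2-creERTM and below all 3 Synapsin-cre libraries. The log2 fold change was −1.31 ± 0.52 for NG2-creERTM over Nestin-creERT2 (adjusted p = 0.411) and −1.17 ± 0.52 for Synapsin-cre over Nestin-creERT2 (adjusted p = 0.462), neither past the threshold by the quasi-likelihood test of edgeR. Without Nestin-creERT2 replicate 2 the values were −0.69 and −0.55. Its correlation with the family over the 9 libraries was 0.31, the lowest of the members tested, and 51.4% of its 50-base mRNA words also occur in 3 other annotated genes.

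As a share of the summed CPM of the pair, Rpl22l1 made up 17.8, 8.15 and 5.37% in Synapsin-cre, 4.08, 5.23 and 9.59% in NG2-creERTM, and 18.5, 25.4 and 7.52% in Nestin-creERT2. Rpl22 itself had 106, 249 and 489.9 CPM in Synapsin-cre tumours, 346, 376 and 288 CPM in NG2-creERTM, and 222, 272 and 253 CPM in Nestin-creERT2. Its groups did not overlap between NG2-creERTM and Nestin-creERT2, whereas those of Rpl22l1 did.

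The other paralogue pairs held narrower proportions. Rps27l, a p53-induced relative of Rps27, made up 12.8, 16.1 and 10.5% of its pair in Synapsin-cre, 17.8, 22.3 and 23.3% in NG2-creERTM, and 18.7, 11.8 and 17.3% in Nestin-creERT2. All 3 NG2-creERTM shares lay above all 3 Synapsin-cre shares, and overlapped those of Nestin-creERT2. Rpl7l1 made up 18.3, 16.1 and 25.2% of its pair with Rpl7 in Synapsin-cre, 22.7, 14.7 and 15.2% in NG2-creERTM, and 13.7, 16.7 and 17.4% in Nestin-creERT2. The paralogues known from muscle (Rpl3l) and testis (Rpl10l and Rpl39l) were near 0 and untested. Rpl3l had 1 to 15 counts in a library, Rpl39l had 0 to 3, and Rpl10l had 0 in all 9.

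**Figure D5:**
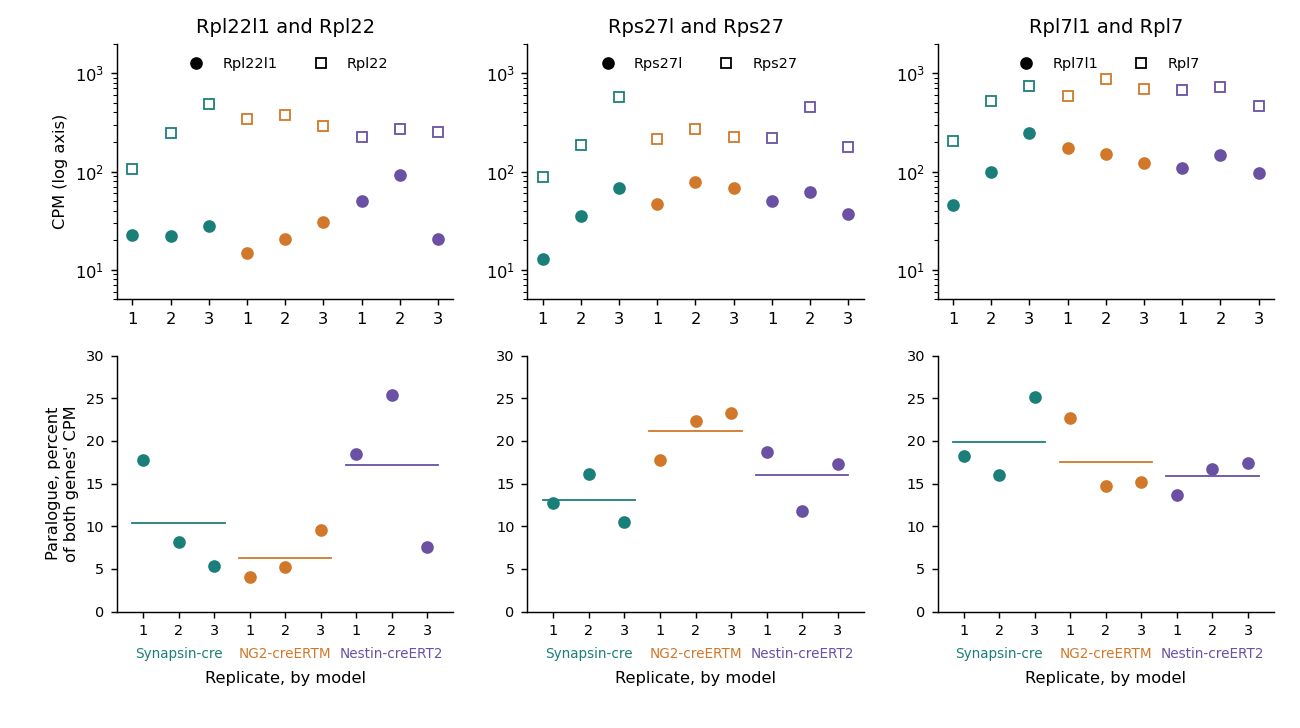
Top, CPM on a log axis of 3 paralogues (filled) and their partners (open) in each library; bottom, the paralogue's percent of the summed CPM of the pair, with the mean of the 3 libraries of a model as a line. Rpl22l1 reached 25.4% in Nestin-creERT2 replicate 2 and had means of 10.4% in Synapsin-cre, 6.30% in NG2-creERTM and 17.1% in Nestin-creERT2.

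Genes that make or use ribosomes were read beside the family, and none of them passed in any comparison by edgeR. Of 32 ribosome biogenesis genes, 26 were positive for NG2-creERTM over Nestin-creERT2, against 50.9% of all genes, with a median of 0.41, beside 0.12 for the ribosomal proteins. Without overlap between the models 14 of the 32 were higher, against 11% of all genes, and 2 were lower, against 14.2%. The nucleolar protein Ncl had 973, 1150.5 and 1279 CPM in NG2-creERTM, against 901, 639 and 583 CPM in Nestin-creERT2 (0.68 ± 0.47, adjusted p = 0.619). Of the 17 translation factors whose mRNAs are of the TOP class, 14 were positive, against 50.9% of all genes, with a median of 0.38. That count was 9 without NG2-creERTM replicate 2, and 16 without NG2-creERTM replicate 1 or without Nestin-creERT2 replicate 2. Among these factors Eif3l, on chromosome 15, had 269, 256 and 284 CPM in NG2-creERTM, against 188, 146 and 128 CPM in Nestin-creERT2. Eef1g, on chromosome 19, had 134, 189 and 124 CPM in NG2-creERTM, against 273, 234 and 251 CPM in Nestin-creERT2.

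Where Synapsin-cre was compared, the same lists turned on single libraries. Biogenesis genes were positive in 26 of 32 over Nestin-creERT2 (median 0.17) and in 16 of 32 over NG2-creERTM (−0.02), and TOP-class factors in 11 of 17 (0.05) and 2 of 17 (−0.34). Of all genes 57.8% were positive over Nestin-creERT2 (median 0.13) and 54.6% over NG2-creERTM (0.08). Without Synapsin-cre replicate 1 the biogenesis medians were 0.51 over Nestin-creERT2 and 0.33 over NG2-creERTM, and those of the TOP-class factors were 0.42 and −0.05. In that fit 32 of 32 biogenesis genes were positive over Nestin-creERT2, against 50.5% of all genes. Without Synapsin-cre replicate 3 the medians were −0.42 and −0.60 for biogenesis and −0.42 and −0.76 for the TOP-class factors. Myc, which drives ribosome production, had 20.7, 97.4 and 253 CPM in Synapsin-cre tumours, 163, 348 and 126 CPM in NG2-creERTM, and 77.4, 111 and 169 CPM in Nestin-creERT2. It lies on chromosome 15, and its groups overlapped in every comparison. Mycn had 14.5, 8.03 and 4.54 CPM in Synapsin-cre tumours, 6.65, 11.1 and 8.16 CPM in NG2-creERTM, and 18.9, 20.8 and 7.55 CPM in Nestin-creERT2. In the same comparison of lists, other initiation factors were positive in 13 of 22 for NG2-creERTM over Nestin-creERT2, RNA polymerase I genes in 8 of 14, growth control genes of the mTOR and MYC pathways in 11 of 20, hosts of small nucleolar RNAs in 4 of 9 and genes of the p53 response in 5 of 8. Mitochondrial ribosomal proteins, a list added after values were seen, were positive in 53 of 77. Of all genes 50.9% were positive for NG2-creERTM over Nestin-creERT2. Tsc1, a brake on mTOR signalling that lies on chromosome 2, had 34.2, 36.6 and 40.3 CPM in NG2-creERTM, against 68.4, 64.1 and 86.6 CPM in Nestin-creERT2 (−0.98 ± 0.29, adjusted p = 0.318). Rps6kb2, also a growth control gene, had 11.9, 16.3 and 14.7 CPM in NG2-creERTM, against 23.4, 25.1 and 34.2 CPM in Nestin-creERT2 (−0.95 ± 0.36, adjusted p = 0.403 by edgeR). Of the 20 growth control genes, 2 were lower without overlap, against 14.2% of all genes, and 0 were higher, against 11%.

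Ribosomal proteins outside the symbol rule were measured too. Fau, which encodes a ubiquitin-like protein fused to Rps30, had 120.1, 156 and 219 CPM in Synapsin-cre tumours, 141, 196 and 129.7 CPM in NG2-creERTM, and 174, 164 and 155 CPM in Nestin-creERT2, a narrower range than the 2.75-fold of Rpl3. Rack1, a scaffold on the small subunit, had 265, 1168 and 1598 CPM in Synapsin-cre tumours, 924, 662 and 886 CPM in NG2-creERTM, and 857, 1249 and 373 CPM in Nestin-creERT2. The genes most like the family over the 9 libraries, of 10848 compared, were Dnajc2, a chaperone that sits on the ribosome, and Pimreg, a gene of dividing cells, both with r 0.98, and 0.95 without Synapsin-cre replicate 1. H2afz, a histone variant, had r 0.97 and was the highest of all without that library. Gemin6, Cebpz, Mcm7, Hdgf, Nxt1, Trim59 and Nono completed the 10. At the other end stood Synj1, a protein of synaptic vesicle recycling, with r −0.98, and −0.94 without Synapsin-cre replicate 1.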

How the data were processed

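The deposited files hold, per library, counts of reads per gene in the layout of STAR's gene count output. The submitters' processing notes name STAR, HTSeq and the mouse build mm10 without versions, and the annotation release is not given in the sources used here. Per the labels, total RNA came from glioblastoma tissue by a Qiagen RNeasy kit, and libraries were Illumina's.

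Counts of the strand in column 4 were used, since the other strand held 3.25 to 3.64% of reads in genes, and the 4 summary lines were left out. Reads mapping to several places (4.97 to 9.50%) and reads in no gene (4.89 to 14.9%) are therefore absent. A median of 33.5% of a member's 50-base mRNA words also occurs in other annotated genes, and 269 pseudogenes named after members held 0.0057 to 0.0300% of counts. Symbols, types and coordinates came from GENCODE vM21 on GRCm38, which matched 46005 identifiers. Length is that of the principal mRNA.

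CPM use TMM size factors. Genes were kept by filterByExpr with model as group, which left 80 members, and tested 2-sided in edgeR 4.0.16 (R 4.3.3) by a quasi-likelihood fit of 3 models to 9 libraries, with Benjamini-Hochberg adjustment over all genes and a threshold of 0.05. The SE is the absolute log2 fold change over the square root of F. The common biological coefficient of variation was 0.612 (0.503 when Synapsin-cre replicate 1 was left out). Log2 CPM used a prior count of 2. Alternatives were other size factors and filters, limma 3.58.1 voom with and without quality weights, DESeq2 1.42.0, unstranded counts, fits of 2 models and fits leaving each library out. Tables and plots were made with matplotlib 3.10.9, pandas 2.3.3 and numpy 2.4.6 on Python 3.11.15. The fits were also run on simulated data, whose planted changes were all larger than the members' fold changes between models. That run cannot show whether changes of the members' size would be found.

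Members and lists were chosen with earlier results of these data known. Members named are those with the 4 smallest p in each direction of a comparison, the 3 smallest for any model, paralogue pairs, the 5 highest and lowest per kb, the 5 largest and smallest SD, and X-linked members. Non-members are a fixed panel and up to 3 per list. The chromosome comparison, the list medians with a library left out, and the members named in it or among those without overlap, were chosen after values were seen. The values of 1 member are not reported here by name.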

Additional observations from a re-analysis of the deposited data

How the results depend on the processing

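No member passed the threshold of 0.05 in any comparison under any alternative run, and the lowest adjusted p of a member was 0.110, for Rplp1 in Synapsin-cre over Nestin-creERT2 by limma voom with quality weights. The number of genes called over the whole table was 0 in each comparison and moved with the method. For NG2-creERTM over Nestin-creERT2 it was 623 by DESeq2, 237 in the fit of these 2 models, 160 with voom quality weights and 12 without a filter. For Synapsin-cre over Nestin-creERT2 it was 497 by DESeq2, 5 in the fit of the 2 models, 431 in that fit without Synapsin-cre replicate 1, 266 with quality weights, 12 without a filter and 1 with unstranded counts. For Synapsin-cre over NG2-creERTM it was 446 by DESeq2 and 1 in the fit of the 2 models without Synapsin-cre replicate 1. For any difference among the models it was 868 by DESeq2, 94 with quality weights and 23 without a filter. With 1 library left out it ranged over 0 to 124, 0 to 273, 0 to 1 and 0 to 346 in that order, each highest without Synapsin-cre replicate 1.

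With 1 library left out, log2 fold changes of Synapsin-cre over Nestin-creERT2 ranged over −0.45 to 1.11 for Rps28, −0.60 to 1.19 for Rps2 and −0.11 to 0.87 for Rpl30. For Synapsin-cre over NG2-creERTM they ranged over −0.82 to 0.74 for Rps28, −0.44 to 0.63 for Rpl35, −0.31 to 0.53 for Rpl7a and −0.00065 to 0.78 for Rpl24. Each lowest value was that without Synapsin-cre replicate 3 and each highest that without Synapsin-cre replicate 1. Rps28 for Synapsin-cre over NG2-creERTM was −0.16 by limma voom, against 0.29. The cause was not tested. No paired analysis was possible because replicate numbers only name samples in accession order.

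Few counts limit only Rpl24 and the silent paralogues, since the other members had far more counts in each library. Rpl24 lies under another annotated transcript on its own strand, so its fold changes above are not taken as changes in its level. Intervals are not given. The SEs printed with log2 fold changes include the spread between libraries, which far exceeds counting error.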
